A study of Mus musculus with 6 samples.

Results

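The 7 genes described here cover the life of GABA at the synapse and its slow receptor: the synthesis genes Gad1 and Gad2, the vesicular transporter gene Slc32a1, the plasma membrane transporter gene Slc6a11, the breakdown enzyme gene Abat, and the GABA-B receptor subunit genes Gabbr1 and Gabbr2. They were picked by gene symbol through the array annotation, with earlier results of these data known, and are 7 of 16663 genes tested. Each had 1 probeset, and all 7 passed the filter on low signal, a mean log2 signal of at least 6 over the arrays. The RNA came from the hypothalamus of female C57BL/6J offspring killed at 21 weeks, all on standard chow. The CON group (3 arrays) is labelled as control, with no drug named. In the CGP group (3 arrays) the mothers took CGP 39551, a competitive antagonist of the NMDA receptor (NMDAR), at 5 mg/kg by mouth during pregnancy and up to the end of weaning. Each group's RNA was a pool of 18 mice, and its 3 arrays may all be repeats of that pool: the methods say so for male tissue, and nothing says otherwise for these arrays. The SD, standard errors and p-values below therefore describe how arrays varied, which is then technical, and not how mice varied.

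GABA is the main inhibitory transmitter of the adult brain, and many hypothalamic neurons, peptide neurons of the arcuate nucleus among them, release it. Glutamate decarboxylase makes it from glutamate, the vesicular transporter loads it, and after release it is taken up by neurons and astrocytes and broken down in mitochondria. Its GABA-B receptor is a G protein-coupled heterodimer that opens potassium channels and dampens calcium entry and transmitter release.

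The tissue label was checked against its markers first. Of the 12 hypothalamic markers, 11 were tested, among them Oxt at 12.16 and Hcrt at 12.51 (mean log2 RMA signal in CON). Signal of neighbouring tissue was also present in CON. The anterior pituitary genes Gh and Prl were at 13.27 and 13.22, with Tshb at 6.68, and the choroid plexus gene Ttr was at 11.83. The label's protocol mentions the adrenal gland. The 6 adrenal genes tested had mean signals close to the filter in both groups, from 6.04 for Cyp11a1 in CGP to 7.03 for Cyp11b2 in CON, and the largest change among them was 0.12 for Star (adjusted p = 0.374 from limma). The 6 arrays were alike, with correlations over all tested probesets of 0.997 to 0.998 within a group and 0.996 to 0.998 between groups. CGP replicate 1 stood apart on the second principal component (21.7% of the variance), at -9.67 against -0.013 to 4.78 for the other arrays. On the first component (35.0%) it lay among the CON arrays, at -0.90 against -8.75 to -0.74. CGP replicates 2 and 3 were at 8.05 and 6.40 there. Leaving out CGP replicate 1 was among the alternatives.

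None of the 7 genes passed the test between CGP and CON (limma, Benjamini-Hochberg adjusted p under 0.05 over 18239 probesets), with adjusted p values of 0.359 to 0.883. Over all tested probesets the share that passed was 0.280%, and 1 of the 7 had an unadjusted p under 0.05, against 11.1% of all tested probesets. The genes of synthesis, loading and breakdown lay slightly lower in CGP and those of uptake and the receptor slightly higher, with changes from -0.08 to 0.10 on the log2 scale. The median change of the 7 was -0.020, and that of all tested probesets was -0.0031. The 95% intervals of the 7 differences lay between -0.19 and 0.18, inside the 1.4-fold change (0.49 on the log2 scale) that the study used as its threshold. The 3 CGP signals were all above the 3 CON signals for 3 of the 7 genes, Slc6a11, Gabbr1 and Gabbr2, where 7.59% of all tested probesets did so. For no member did every CGP array lie below every CON array, and 9.95% of all tested probesets did so.

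**Figure D1:**
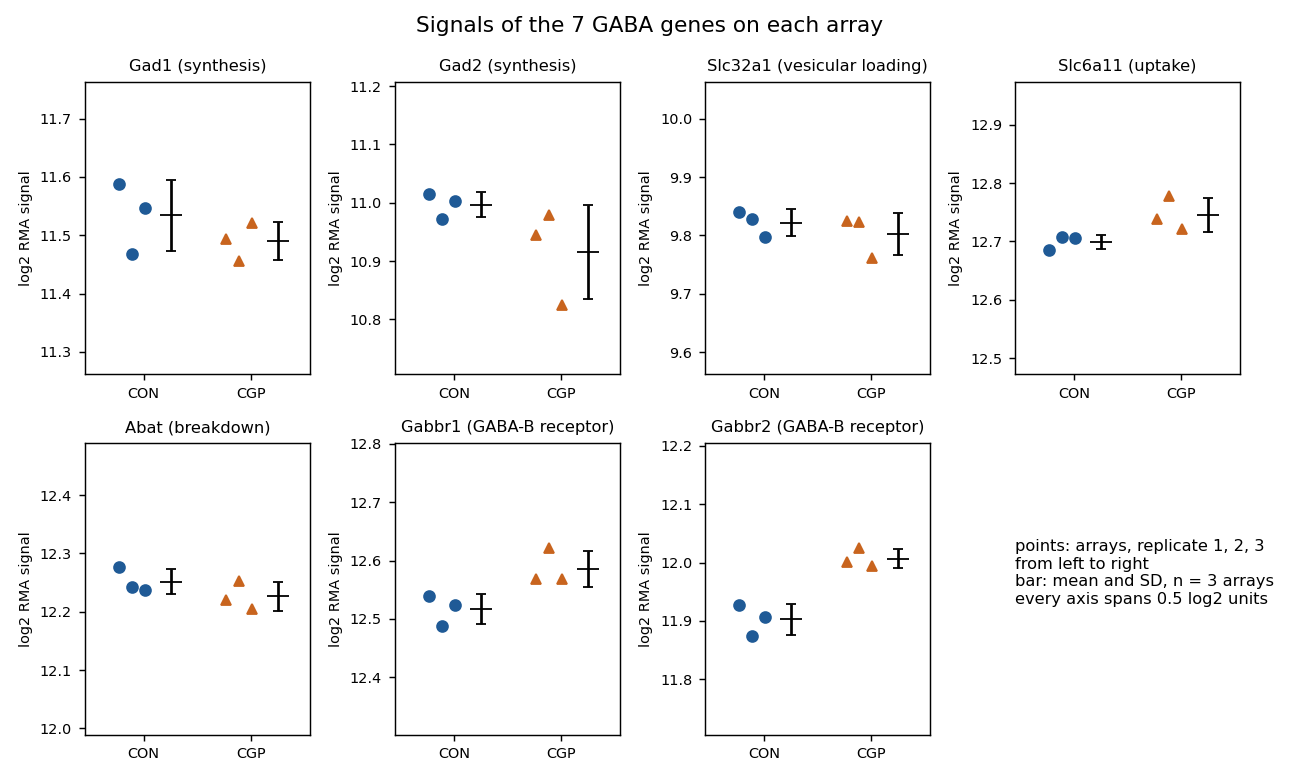
Log2 RMA signals of the 7 genes, 1 panel a gene, with CON arrays as circles, CGP arrays as triangles and bars for the mean and SD of the 3 arrays of a group. The groups lie apart only for Slc6a11, Gabbr1 and Gabbr2, and the low point in the Gad2 panel is CGP replicate 3 at 10.83.

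Gad1 encodes the larger form of glutamate decarboxylase, which makes most of the brain's GABA. The log2 signals of Gad1 were 11.59, 11.47 and 11.55 in CON replicates 1 to 3 and 11.49, 11.46 and 11.52 in CGP replicates 1 to 3. The groups overlapped, since CON replicate 2 lay below CGP replicates 1 and 3. The CON mean of 11.53 ± 0.061 and the CGP mean of 11.49 ± 0.033 (SD over 3 arrays) differed by -0.04 (standard error 0.043, adjusted p = 0.743 from limma), with a 95% interval of the log2 difference from -0.14 to 0.05. Leaving out CON replicate 1 gave -0.017, and leaving out CON replicate 2 gave -0.078.

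Gad2 encodes the smaller form, which is held at the membrane of synaptic vesicles and supplies GABA for release on demand. On the arrays it gave log2 signals of 11.02, 10.97 and 11.00 in CON and 10.94, 10.98 and 10.83 in CGP. The lowest signal was that of CGP replicate 3, while CGP replicate 2 lay above CON replicate 2, so that the groups overlapped. The difference in log2 signal was -0.08 (standard error 0.047, adjusted p = 0.569 from limma), with a 95% interval from -0.19 to 0.03. Without CGP replicate 3 it was -0.035, against -0.080 with all arrays. No difference between the changes of both forms was detected: the within-array difference Gad1 minus Gad2 ran from 0.49 to 0.57 in CON and from 0.48 to 0.70 in CGP (two-sided exact permutation p = 0.80). This was 1 of 4 such pairs, and with 3 arrays against 3 the smallest p possible is 0.10.

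Slc32a1 encodes the vesicular inhibitory amino acid transporter, which fills vesicles with GABA or glycine and so marks inhibitory terminals. The CON arrays read 9.84, 9.83 and 9.80 and the CGP arrays 9.82, 9.82 and 9.76 (log2 signal, replicates 1 to 3), and the groups overlapped. The difference in log2 signal was -0.02 (standard error 0.037, adjusted p = 0.883 from limma), with a 95% interval from -0.10 to 0.07. As for Gad2, CGP replicate 3 was the lowest array, and without it the difference was 0.0014, against -0.031 without CGP replicate 1. Slc17a6, the vesicular glutamate transporter gene of most hypothalamic excitatory neurons, had a CON mean of 10.91 ± 0.028 and a CGP mean of 10.99 ± 0.016 (SD over 3 arrays). Its own difference was 0.08 (adjusted p = 0.460 from limma). The other glutamate neuron genes tested, Slc17a7 and Slc17a8, were at 0.018 and -0.030, and for both the groups overlapped. The within-array difference Slc32a1 minus Slc17a6 was lower on every CGP array, at -1.23 to -1.15, than on every CON array, at -1.13 to -1.05. The difference in change was -0.10, at the smallest p possible (two-sided exact permutation p = 0.10, 0.20 after Benjamini-Hochberg adjustment over the 4 pairs).

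Slc6a11 encodes a GABA transporter found mainly on astrocytes, which clears GABA outside the synapse. The log2 signals of Slc6a11 were 12.69, 12.71 and 12.71 in CON and 12.74, 12.78 and 12.72 in CGP. Each CGP signal was above each CON signal, with CGP replicate 3 closest to the CON arrays. The difference in log2 signal was 0.05 (standard error 0.035, adjusted p = 0.659 from limma), with a 95% interval from -0.03 to 0.13. Astrocyte markers did not lie in the same direction. Of 8 tested, 7 were lower in CGP and none passed, with a median change of -0.059 and the largest change for S100b (-0.14), and their summed signal was 14.63 to 14.66 in CON and 14.55 to 14.64 in CGP (log2 of the sum over the 8 genes, per array). In such bulk samples, fewer cells of a type and less RNA per cell cannot be told apart.

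Abat encodes GABA transaminase, the mitochondrial enzyme that begins the breakdown of GABA in neurons and astrocytes. Its log2 signals were 12.28, 12.24 and 12.24 in CON and 12.22, 12.25 and 12.21 in CGP, and the groups overlapped, since CGP replicate 2 lay above CON replicates 2 and 3. The difference in log2 signal was -0.03 (standard error 0.035, adjusted p = 0.827 from limma), with a 95% interval from -0.11 to 0.06, and lay between -0.039 and -0.013 when single arrays were left out. Synthesis was also set against breakdown. The within-array difference Gad1 minus Abat had a CON mean of -0.72 ± 0.050 and a CGP mean of -0.74 ± 0.057 (SD over 3 arrays; two-sided exact permutation p = 0.70).

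The GABA-B receptor genes had the largest positive changes of the 7. Gabbr1 encodes the subunit that binds GABA. Its log2 signals were 12.54, 12.49 and 12.52 in CON and 12.57, 12.62 and 12.57 in CGP, and the groups did not overlap. The CON mean of 12.52 ± 0.026 and the CGP mean of 12.59 ± 0.030 (SD over 3 arrays) differed by 0.07 (standard error 0.036, adjusted p = 0.531 from limma), with a 95% interval from -0.01 to 0.15.

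Gabbr2 encodes the partner subunit, which carries the receptor to the cell surface and couples it to the G protein. Its log2 signals were 11.93, 11.87 and 11.91 in CON and 12.00, 12.02 and 11.99 in CGP, so that the lowest CGP array lay clear of the highest CON array. The CON mean of 11.90 ± 0.027 and the CGP mean of 12.01 ± 0.016 (SD over 3 arrays) differed by 0.10 (standard error 0.035), a 1.07-fold higher signal, with a 95% interval from 0.02 to 0.18. Gabbr2 was the member with an unadjusted p under 0.05, and its adjusted p was 0.359 (limma). A change of this size or more, in either direction, was found for 14.6% of all tested probesets. Under 1 alternative, limma with a trended and robust eBayes step, Gabbr2 passed at an adjusted p of 0.0487, in a setting that called 1.37% of all tested probesets; over the 16 alternatives its adjusted p reached up to 0.627.

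The subunits followed each other over the arrays. CON replicate 2 was the lowest CON array and CGP replicate 2 the highest CGP array for both genes. With the group means taken off, their deviations had a Pearson r of 0.94 over the 6 arrays, which share the pools of RNA and the normalization. The within-array difference Gabbr1 minus Gabbr2 was 0.61 to 0.62 on the CON arrays and 0.57 to 0.60 on the CGP arrays, without overlap. The difference in change was -0.035, at the smallest p possible (two-sided exact permutation p = 0.10, 0.20 after adjustment over the 4 pairs).

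**Figure D2:**
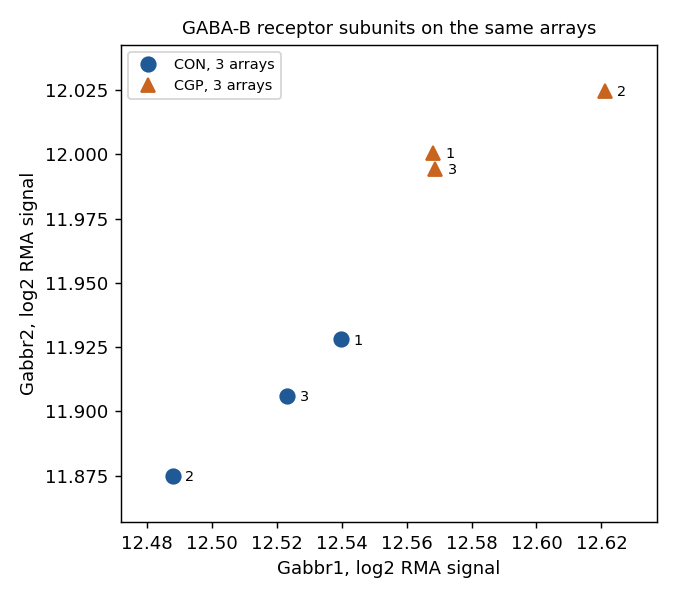
Log2 RMA signal of Gabbr2 (vertical axis) against Gabbr1 (horizontal axis) on each array, with circles for CON, triangles for CGP and the replicate number beside each point. The 3 CGP arrays lie above and to the right of the 3 CON arrays, and the axes span under 0.2 log2 units.

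Other genes of GABA handling and GABA-B signalling came from a list of 37, of which 32 were tested. None passed the test in either direction, 5 had an unadjusted p under 0.05 (limma), and 16 lay higher and 16 lower in CGP. The other 5 were not analysed here.

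All 4 genes of the auxiliary subunits that bind Gabbr2 and shape the kinetics of the receptor's response lay higher in CGP, and none passed. Kctd8 had the largest of these log2 changes at 0.13 (adjusted p = 0.419 from limma), followed by Kctd12b at 0.09 and Kctd12 at 0.07. With the receptor subunits, 6 of 6 GABA-B receptor genes were higher in CGP, with a median change of 0.084, where 47.9% of all tested probesets were higher. The 6 genes share the same arrays, and Gabbr1 and Gabbr2 followed each other over them. The count is therefore no test of a joint rise. Without CGP replicate 1, Kctd12 was at 0.12, Kctd12b at 0.059 and Kctd16 at -0.010. Of the receptor effectors, 6 of 8 were lower, where 52.1% of all tested probesets were lower, and none passed. These 6 changes were small, from -0.05 to -0.01, and the groups overlapped for each. Kcnj9, the gene of a G protein-gated potassium channel subunit, had a change of 0.11 (adjusted p = 0.468 from limma), while Gnai3 and Kcnj6 were at -0.05 and -0.04. Without CGP replicate 1, Kcnj9 was at 0.063 and Gnai3 at -0.088, and without CON replicate 1 Gnai3 was at 0.00071.

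The remaining plasma membrane transporters had the largest changes in GABA handling. Slc6a13, a GABA transporter gene of the meninges and the blood-brain interface, had log2 signals of 9.55, 9.37 and 9.36 in CON and 9.11, 9.01 and 8.93 in CGP. Every CGP array was below every CON array, and the difference of -0.41 (standard error 0.065) missed the threshold at an adjusted p of 0.0597 from limma. Slc6a12, the betaine and GABA transporter gene, had log2 signals of 8.93 on each CON array and 8.69, 8.75 and 8.57 in CGP, and differed by -0.26 (standard error 0.050, limma adjusted p = 0.117). Both pointed opposite to Slc6a11, the uptake gene of astrocytes. Most markers of the meninges and fibroblasts moved with them: 6 of 8 were lower in CGP, 3 of them past the test (Prg4, Ogn and Fmod). The fibroblast genes Col1a1 (-0.014), Col1a2 (0.0040) and Lum (0.020) were near 0. The list's summed log2 signal was 11.60 to 11.63 in CON and 11.32 to 11.41 in CGP. The part of these markers in the Slc6a12 and Slc6a13 values was not tested.

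Among the genes that supply glutamine and glutamate, 3 of 6 lay higher and 3 lower. The largest log2 change was -0.09 for Slc38a2, a neuronal glutamine transporter gene (adjusted p = 0.449 from limma), and Glul, the astrocyte glutamine synthetase gene, was at -0.04. The cofactor and breakdown enzymes Pdxk, Aldh5a1 and Aldh9a1 lay between -0.03 and -0.0049. Aldh5a1 follows Abat in the breakdown of GABA. The chloride transporters that set the effect of GABA-A channels were at -0.08 for Slc12a2, the importer, and 0.04 for Slc12a5, the exporter of mature neurons. Among transcription factors of GABA neurons, 6 of 7 lay higher, where 47.9% of all tested probesets did, and none passed. They were led by Sp8 at 0.12 and Sp9 at 0.10 (adjusted p = 0.433 and 0.451 from limma), with Dlx1 at -0.06. Sp8 had a mean log2 signal of 6.45 over the arrays, close to the filter.

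**Figure D3:**
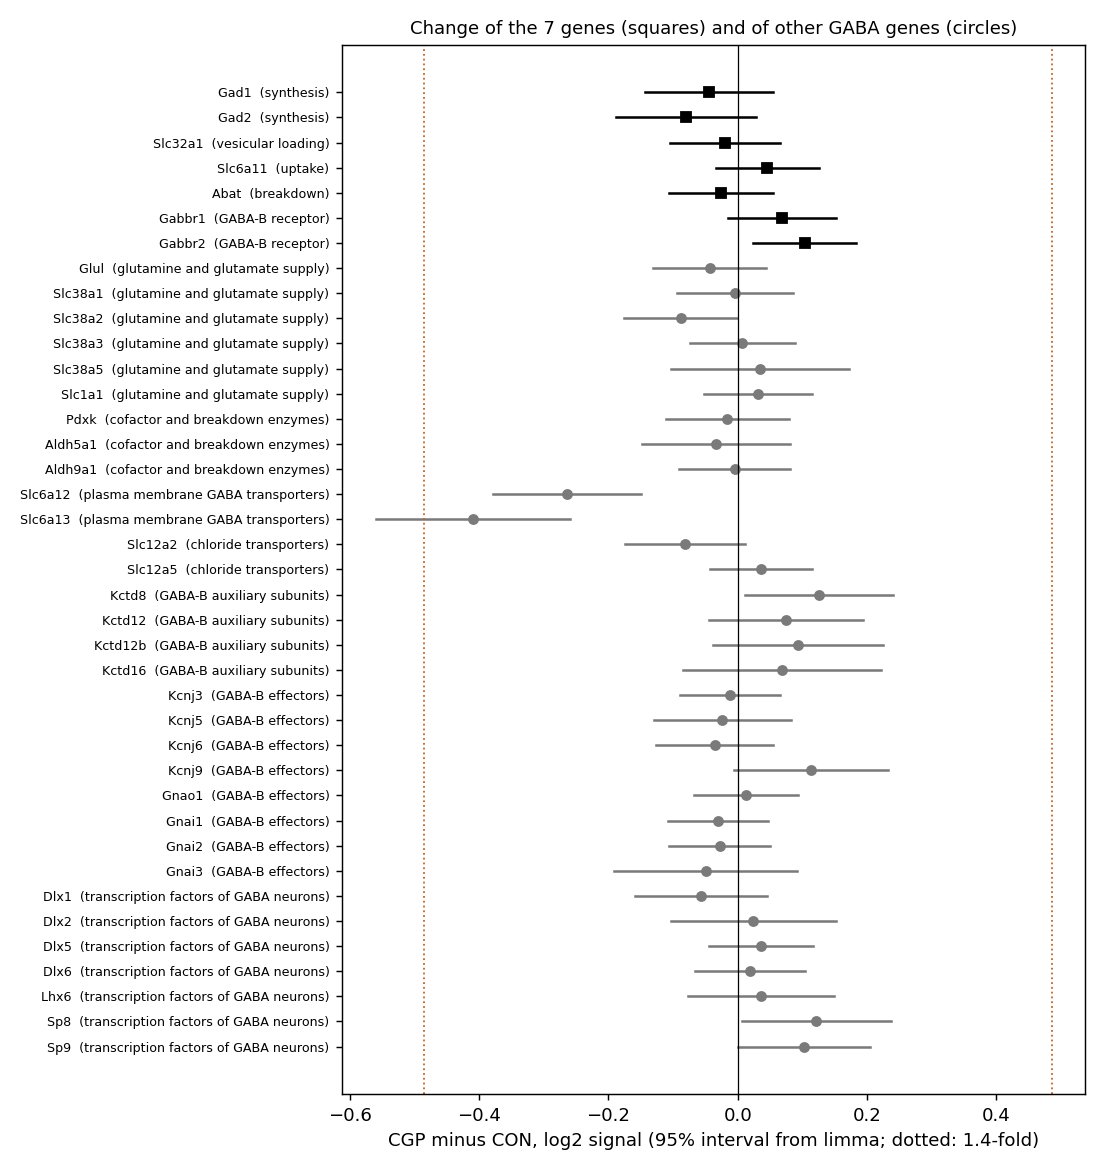
Difference CGP minus CON in log2 signal with its 95% interval from limma, for the 7 genes (squares) and the 32 other genes tested (circles), and dotted lines at a 1.4-fold change. The intervals of the 7 stay between -0.19 and 0.18, and the farthest gene from 0 is Slc6a13 at -0.41.

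Markers of tissue next to the hypothalamus also differed between the pools. Of the 8 thalamus genes, 7 were higher in CGP, with Ptpn3 (0.36) and Prkcd (0.27) past the test, and the list's summed log2 signal was 13.76 to 13.79 in CON and 13.93 to 13.95 in CGP, without overlap. The 5 striatal genes tested were also higher, none past the test, led by Pde10a at 0.14. Choroid plexus genes (7 of 7 higher, Ttr and Slc4a5 past the test) and anterior pituitary genes (5 of 6 higher, Gh and Lhb past the test) were on the same side. Midbrain dopamine neuron genes were mostly on the other side, with 7 of 8 lower and Slc6a3 past the test. The exception, Nr4a2, was higher at 0.15 (adjusted p = 0.303 from limma), and Pitx3 was near 0 at -0.013. The part of these marker lists in the values of Gabbr1, Gabbr2, Gad2, Slc32a1 and Slc17a6 was not tested. Of the general neuron markers, 4 of 6 were higher and none passed, with the largest change for Nefl (-0.09), and their summed log2 signal was 14.93 to 14.95 in CON and 14.92 to 14.94 in CGP. The other lists lay mostly lower in CGP with no gene past the test: 8 of 11 hypothalamic genes, led by Cartpt (-0.24), 6 of 6 oligodendrocyte genes, led by Mog (-0.14), 5 of 6 microglia genes, led by Aif1 (-0.19), and 6 of 6 endothelial genes, led by Cldn5 (-0.10). The summed log2 signal of oligodendrocyte genes was 14.40 to 14.44 in CON and 14.34 to 14.37 in CGP, and that of microglia genes was 11.41 to 11.44 and 11.36 to 11.39, both without overlap. That of hypothalamic genes overlapped, at 14.40 to 14.47 in CON and 14.41 to 14.45 in CGP. The endothelial sums also overlapped, at 11.837 to 11.893 in CON and 11.775 to 11.839 in CGP.

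**Figure D4:**
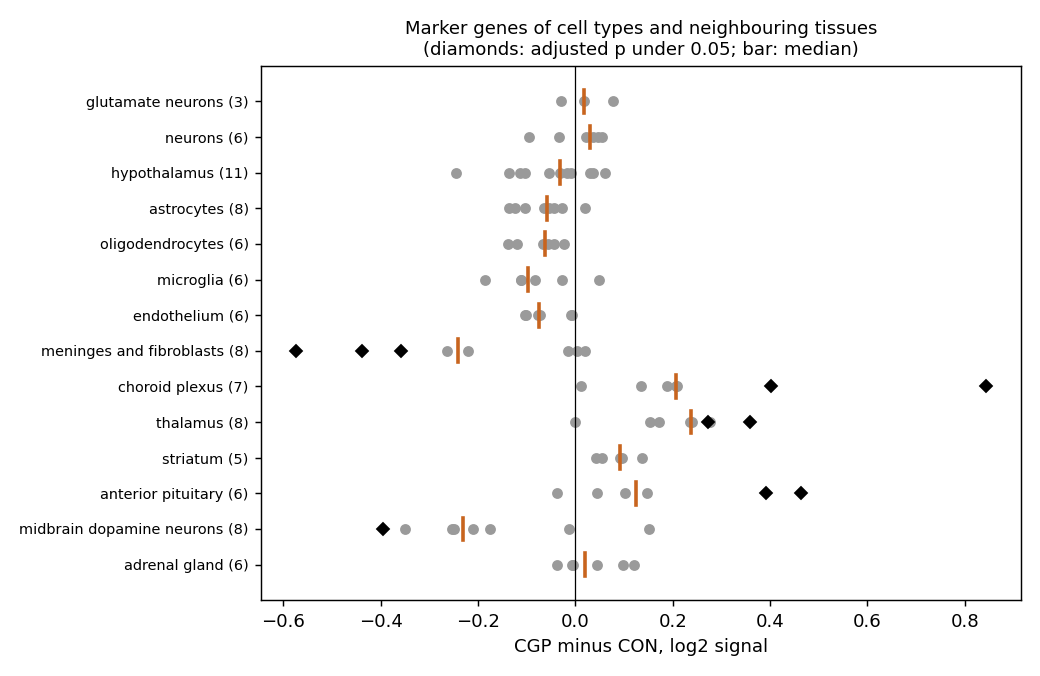
Difference CGP minus CON in log2 signal for each tested marker gene, 1 row a list with the number of genes tested, where diamonds passed an adjusted p of 0.05 in limma and the vertical bar is the median. Thalamus and choroid plexus genes lie mostly above 0, and meningeal and midbrain dopamine genes mostly below it.

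The genes whose signals were most like those of the members over the 6 arrays, by Pearson r, were Ikzf2 for Gad1 (r = 0.98), Trpm5 for Gad2, 4930453N24Rik for Slc32a1, Atp11a for Slc6a11, Ghrh for Abat, Psmb8 for Gabbr1 and Ctsf for Gabbr2 (r = 0.993 to 0.996 for these 6). With 6 arrays such values are common: from 95 genes for Gad1 to 356 genes for Gabbr2, of 16662 others, had an r above 0.9. Trpm5 and Psmb8 had signals close to the filter. Their mean log2 signals were 6.31 in CON and 6.26 in CGP for Trpm5, and 6.37 and 6.51 for Psmb8. The members were also compared with each other, with the group means taken off. Abat had an r of 0.82 with Gabbr1, 0.80 with Gabbr2, 0.74 with Gad2 and 0.73 with Slc32a1. Gad2 had one of 0.80 with Slc32a1 and -0.19 with Gad1. With Slc6a11, Gad1 had an r of -0.70 and Gad2 one of 0.69. How often such r arise over all genes with the group means taken off was not counted.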

How the data were processed

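The authors deposited 1 table of log2 signals of 28471 probesets on 6 Affymetrix Mouse Gene 1.0 ST arrays. RMA and Partek are named in the submitters' processing notes, with versions not given in the sources used here; RMA corrects background, normalizes quantiles and summarizes probes by median polish, so that weak signals are compressed. Values were used as deposited. Probesets were named from the platform annotation: 18690 had 1 gene, 1163 several and 8618 none listed. After the methods, probesets without a single gene and, here as a mean over the arrays, signals below 6 (451 probesets) were left out. CGP was compared with CON by lmFit and eBayes in limma 3.58.1 (R 4.3.3), without covariates and with Benjamini-Hochberg adjustment over the 18239 probesets left. The steps were tested on simulated data. The genes named are the 7 members, per role up to 3 other pathway genes of largest change, per marker list those past the test or else the largest, the gene most like each member, and, after their values were seen, genes of a few small groups. The members and lists were chosen with earlier results of these data known. The alternatives were 1 array left out, other filters, normalizations, variance models and array weights. An ordinary ANOVA of CGP against CON, a replicate block and the mean over probesets were also used. The number of arrays limits the precision. No coordinates are given, since no source used here names the build of the array's probesets.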

Additional observations from a re-analysis of the deposited data

How the results depend on the processing

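The 7 members kept the direction of their change in all 16 refits, except Slc32a1, which was at 0.0014 without CGP replicate 3, and none passed the test in any of them, except Gabbr2 with a trended and robust eBayes (1 member higher). Members with every CGP array below every CON array numbered 0 to 2 when single arrays were dropped (2 without CON replicate 2 or CGP replicate 2, and 1 without CON replicate 3). Groups with fewer arrays lie apart more easily, and the share over all tested probesets is not given for these settings. The count is therefore not read as a result about the members. Among other pathway genes, 1 was lower past the test with the signal filter at 7, quantile normalization or array weights (Slc6a13), and 2 with the trended and robust eBayes (Slc6a12 and Slc6a13). Cell type markers past the test were 6 higher and 4 lower. They became 1 higher and 0 to 2 lower with 1 array left out, and 1 and 0 with every probeset tested. An ordinary ANOVA of CGP against CON gave 0 and 0. It is not the study's own ANOVA, which compared more treatment groups. The trended and robust eBayes gave 12 and 13, and the 1.4-fold threshold 1 and 1. With the filter at 7, 9 were lower, and 8 with array weights. Arrays sharing a replicate number were not treated as paired in the main fit. Their deviations from the group means had correlations of 0.078, -0.18 and 0.11, and 2 of 6 arrays correlated best with their own number. The labels do not say whether they were paired, and with 3 arrays a group these values cannot decide it. With the replicate block, 0 members passed, and 1 marker was higher and 1 lower. The cause of these shifts was not tested beyond the fewer arrays and the variance models that the settings themselves bring.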
